A study of Mus musculus with 4 samples.

Results

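A set of 8 genes of the exocrine pancreas was followed through 4 single-cell libraries of mouse intestinal epithelium: Ctrb1, Cpa1, Cela1, Cela3b, Pnliprp1, Cel and Prss2, which encode secreted digestive enzymes or their relatives, and Ptf1a, a transcription factor. They were taken by symbol, and all 8 of 8 were present among the 31054 features of the deposited matrices. Each library came from mice carrying Bmi1-GFP, a reporter placed at the Bmi1 locus, and the labels describe FACS-isolated intestinal epithelial cells in 4 groups. Embryos were taken on day 12.5 (E12.5) or day 17.5 (E17.5) of development, and adult mice were untreated or irradiated. All 4 groups share the reporter genotype, and there was 1 library per group. The number of animals pooled, their age beyond the stage, the sorting gates, and the dose and timing of irradiation were not in the labels.

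A cell was kept if it had 500 or more detected genes and its UMIs (unique molecular identifiers, which count captured RNA molecules) were no more than 20% mitochondrial. This left 4226 at E12.5, 4602 at E17.5, 3788 adult cells and 3184 cells after irradiation. Median depth was 18637.5 UMIs per kept cell at E12.5, 11499 at E17.5, 3699.5 for adult cells and 8786 after irradiation. Pairs of libraries shared between 6 and 12 barcodes. Levels are counts per 1000000 UMIs (CPM), from UMIs summed over cells, with exact Poisson 95% intervals that cover counting error only. Because each group is 1 library, no difference has a replicate check and none was tested.

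Acinar cells of the pancreas make digestive enzymes in bulk, largely as inactive precursors, store them in zymogen granules and release them toward the duodenum. Ptf1a marks early pancreatic progenitors and later stays on in acinar cells, where it works in the PTF1 complex together with Rbpjl and an E protein. Cpa1 is known as an early marker of the tip cells of the branching pancreatic bud, and most other acinar enzymes come on later. The complex recognises a pair of motifs, an E-box (CANNTG) and a TTTCCC box, upstream of many acinar genes.

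In the GENCODE M21 annotation of the GRCm38 genome, Ctrb1 (chymotrypsinogen B) lies on the minus strand of chromosome 8 from 111686519 to 111691010. Cpa1 (carboxypeptidase A) lies on the plus strand of chromosome 6 from 30639218 to 30645363, and Prss2 (an anionic trypsinogen) on the plus strand of the same chromosome from 41521787 to 41525079. Cela1 (a chymotrypsin-like elastase) is on chromosome 15 from 100674421 to 100687921, minus strand. Cela3b (another elastase-family protease) is on chromosome 4 from 137420999 to 137430540, minus strand. Pnliprp1 (pancreatic lipase-related protein) is on chromosome 19 from 58728887 to 58744169, plus strand. Cel (carboxyl ester lipase, also called bile salt-dependent lipase) is on chromosome 2 from 28555795 to 28563403, minus strand, and Ptf1a is on the same chromosome from 19445663 to 19447501, plus strand. The antisense genes Gm13381 and Ptf1aos overlap Cel and Ptf1a, and the microRNA gene Mir7076 lies within Ctrb1. Prss2 has near-identical trypsinogen relatives (Prss1, Prss3, Try4, Try5, Try10), and Cela3b has the close relative Cela3a, so reads could be divided between them and their separate levels are uncertain.

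The members differed together between the libraries, so the 250 bases before the start of 4 of them are shown, from RefSeq on build GRCm38.p6. Each is written 5′ to 3′ on the gene's own strand, with capitals for every CANNTG and every TTTCCC on either strand (GGGAAA on the printed strand). The Ctrb1 window is chr8:111691011-111691260, the Cela1 window chr15:100687921-100688170, the Cel window chr2:28563404-28563653 and the Cpa1 window chr6:30638968-30639217.
Ctrb1: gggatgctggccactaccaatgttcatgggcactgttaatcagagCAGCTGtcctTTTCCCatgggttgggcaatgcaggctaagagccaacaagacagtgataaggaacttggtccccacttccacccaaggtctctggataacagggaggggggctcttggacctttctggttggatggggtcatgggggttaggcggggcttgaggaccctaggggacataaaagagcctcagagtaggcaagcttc
Cela1: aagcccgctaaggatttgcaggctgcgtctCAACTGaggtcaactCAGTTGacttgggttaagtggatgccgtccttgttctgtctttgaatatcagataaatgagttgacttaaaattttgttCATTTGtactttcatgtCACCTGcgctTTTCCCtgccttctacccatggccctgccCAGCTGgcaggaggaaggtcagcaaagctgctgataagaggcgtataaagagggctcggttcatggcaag
Cel: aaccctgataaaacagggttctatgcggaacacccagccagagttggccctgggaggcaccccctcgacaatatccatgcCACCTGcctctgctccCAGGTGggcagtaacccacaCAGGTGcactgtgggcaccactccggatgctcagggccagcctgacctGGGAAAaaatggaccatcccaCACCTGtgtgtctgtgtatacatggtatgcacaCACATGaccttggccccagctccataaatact
Cpa1: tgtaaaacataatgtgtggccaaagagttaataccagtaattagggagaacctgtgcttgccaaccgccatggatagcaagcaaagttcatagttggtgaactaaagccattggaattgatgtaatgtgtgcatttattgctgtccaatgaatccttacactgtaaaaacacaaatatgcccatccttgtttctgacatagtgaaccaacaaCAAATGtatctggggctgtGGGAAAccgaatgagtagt
In Ctrb1 and in Cela1 an E-box is followed 4 bases later by TTTCCC on the gene's strand, with the E-box starting 205 and 109 bases before the start of the gene. Searched on both strands, with CANNTG first and TTTCCC after it, read 5′ to 3′ on the same strand, and 0 to 15 bases between them, the pair was present in 3 of the 8 members (Ctrb1, Cela1 and Cel, in the last on the opposite strand with 15 bases between) and in 500 of 32841 promoter windows of the same length (1.522%). With the motifs in either order it was present in 4 of the 8, Cpa1 being added, and in 963 windows (2.932%). An E-box alone was present in 7 of the 8 members and 66.23% of all windows, and TTTCCC alone in 5 of the 8 and 21.95%. The letters are a description of these windows and say nothing of binding.

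All 8 members had their highest level at E17.5. Counting genes that reached 10 UMIs in one of the libraries or both, 8 of 8 members were at least 4-fold higher at E17.5 than at E12.5 and 0 were at least 4-fold lower, against 14.5% higher and 8.88% lower among all 17119 genes compared. Summed over the 8, the level was 38.77 CPM at E12.5 (37.49 to 40.08) and 14420 CPM at E17.5 (14390 to 14440), a 371.9-fold difference (359.7 to 384.6). In adult cells it was 42.06 CPM (39.84 to 44.37) and after irradiation 52.07 CPM (49.9 to 54.32). In these sums, fewer acinar cells and less enzyme RNA per cell cannot be told apart, and the values within cells are given further on.

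Ctrb1 was the most abundant member at E17.5. It had 27 UMIs at E12.5 (0.30 CPM), 645776 at E17.5 (8395 CPM), 0 in adult cells and 6 after irradiation (0.14 CPM). The 0 of the adult allows up to 0.094 CPM at 3 counts. Prss2 had 13 UMIs at E12.5 (0.15 CPM), 37715 at E17.5 (490.3 CPM), 1 in adult cells and 0 after irradiation. Both proteases were thus at the edge of detection in 3 of the libraries.

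Cela3b, the second elastase gene, had 0 UMIs at E12.5, 34071 at E17.5 (442.9 CPM), 1 in adult cells and 0 after irradiation. Set against 3 counts at E12.5, it was at least 13150-fold higher at E17.5, which is a lower bound. Cela1 differed in its pattern, with 541 UMIs at E12.5 (6.07 CPM), 15756 at E17.5 (204.8 CPM), 1247 in adult cells (39.08 CPM, 36.94 to 41.31) and 2078 after irradiation (50.21 CPM, 48.08 to 52.42). It was the one member with more than 100 UMIs in every library.

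Cpa1 had the highest level of the members at E12.5, with 1948 UMIs (21.87 CPM), and reached 92361 UMIs at E17.5 (1201 CPM), a 54.89-fold difference (52.48 to 57.44). It had 0 UMIs in both adult libraries. Among the lipid-digesting members, Cel had 26 UMIs at E12.5 (0.29 CPM), 21334 at E17.5 (277.3 CPM) and 1 in each adult library. Pnliprp1, a lipase relative, had 713 UMIs at E12.5 (8.01 CPM), 260306 at E17.5 (3384 CPM), 92 in adult cells (2.88 CPM, 2.32 to 3.54) and 70 after irradiation (1.69 CPM, 1.32 to 2.14). The regulator Ptf1a had 185 UMIs at E12.5 (2.08 CPM), 1771 at E17.5 (23.02 CPM) and 0 in both adult libraries, and its 11.08-fold difference (9.521 to 12.97) was the smallest of the 8 between the embryonic stages.

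**Figure D1:**
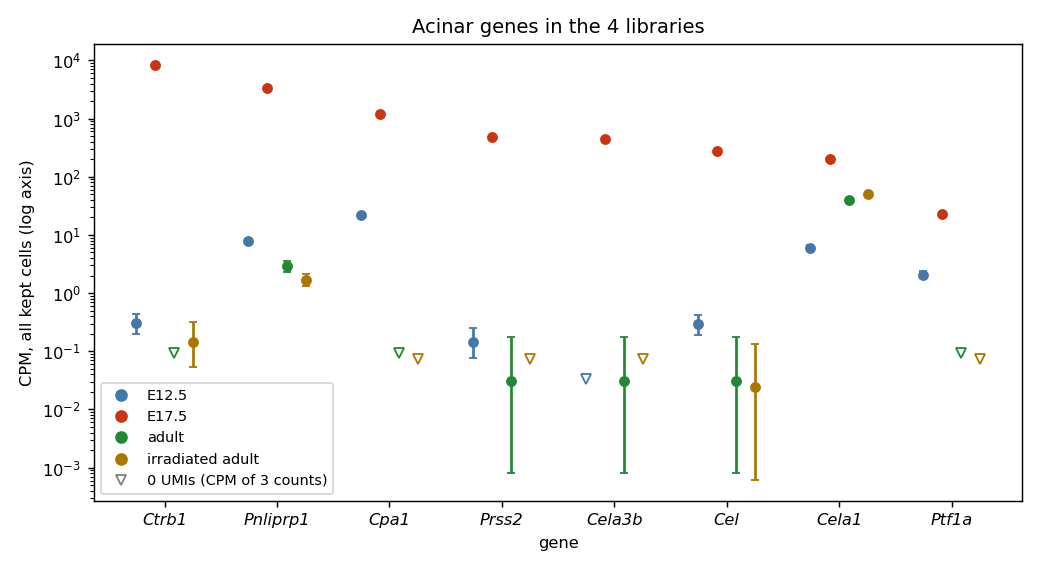
Level of each gene in all kept cells of each library, in CPM on a log axis, with Poisson 95% intervals as bars; open triangles mark 0 UMIs and stand at the level of 3 counts. Every gene is highest at E17.5, and in the adult libraries Cela1 alone lies above 10 CPM.

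A fixed list of other secreted acinar products was set beside the members. Of its 28 genes, 27 were in the files and 26 could be compared between E17.5 and E12.5, of which 24 were at least 4-fold higher at E17.5 and 0 at least 4-fold lower; the median log2 ratio was 4.22, against -0.12 over all genes. Clps, the lipase cofactor colipase, was at 3525 CPM at E17.5 and 9.375 CPM at E12.5, and the trypsinogen Prss1 at 397.6 CPM and 0 UMIs. Pla2g1b, a pancreatic phospholipase, was at 10.72 and 20.98 CPM. Of 12 transcriptional regulators of acinar cells, 2 were at least 4-fold higher and 0 lower: Rbpjl (61.27 against 1.426 CPM) and Bhlha15, the factor Mist1 that organises the secretory apparatus (8.359 against 0.1123 CPM), a share of the list near the 14.5% of all genes. Lists of other cell types were also at least 4-fold higher at E17.5: 20 of 20 enteroendocrine genes, 10 of 11 enterocyte, 8 of 8 goblet, 7 of 9 islet and 6 of 6 smooth muscle genes. Their part in the difference of the members was not tested.

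At E12.5 the early member was Cpa1, and its RNA sat in 1 group of cells. Cells were clustered within each library with the 8 members left out of the clustering. Cluster 11, with 162 of the 4226 cells, had Spp1, Dlk1, Gc, Clps, Mest, Nkx6-1 and Pdx1 among its leading genes, and met the threshold for 6 of 12 pancreatic progenitor markers. It is called progenitor-like here; the threshold was chosen after the clusters had been seen. Pdx1, required for pancreas formation, was at 155.1 CPM in it and 5.847 CPM in the other cells, and Nkx6-1 at 106.2 against 0.6679 CPM. Markers of other tissues were also present: the gut factor Cdx2 was at 97.93 CPM in the cluster (313.1 CPM elsewhere), and 2 of 5 liver markers compared were at least 4-fold higher in it (Afp and Alb, at 293.5 and 52.59 CPM). Their part in the member levels was not tested.

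The progenitor-like cells held 1878 of the 1948 Cpa1 UMIs (96.41%), at 503.9 CPM (481.3 to 527.2), while Cpa1 was at 0.82 CPM (0.64 to 1.04) in the other 4064 cells. They also held 181 of the 185 Ptf1a UMIs, all 27 Ctrb1 UMIs, all 13 Prss2 UMIs and 12 of the 26 Cel UMIs, and no Cela3b. Of the members, 7 could be compared between the cluster and the rest of the library, and 6 were at least 4-fold higher in the cluster and 0 lower, against 3.48% and 1.07% of all genes; the clustering had not used them. The exception was Pnliprp1, at 26.03 against 7.22 CPM. Cpa1 was uneven among these cells. The median cell had 2 Cpa1 UMIs, the highest 184, and the 10 highest cells held 41.0% of the UMIs. No cell reached 1% of its UMIs in Cpa1, the highest share being 0.70%.

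Ptf1a and Cpa1 were detected in overlapping cells. In the cluster, 55 cells had UMIs of both, 1 had Ptf1a alone, 43 had Cpa1 alone and 63 had neither. Cpa1 was at 737.2 CPM (697.4 to 778.7) in the 56 cells with a Ptf1a UMI and at 299.5 CPM (275.9 to 324.5) in the 106 without. Prss2 was at 6.32 CPM (11 UMIs) and 1.01 CPM (2 UMIs) in the same cells, Cel at 6.32 CPM (11 UMIs) and 0.50 CPM (1 UMI), Pnliprp1 at 41.37 and 12.58 CPM and Ctrb1 at 9.77 and 5.03 CPM. The cells with a Ptf1a UMI were deeper, with a median of 25629.5 UMIs against 14944.5, so a UMI of a low gene such as Ptf1a was more likely to be seen in them. Over the whole library, the 5 genes with the highest ratio in the 60 Ptf1a-positive cells, members aside, included P2rx1, an ATP-gated channel (155.2-fold), Clps (93.12-fold), Kirrel2, a nephrin-family adhesion protein (82.49-fold), and Rbpjl (78.99-fold). Rbpjl, the acinar partner of Ptf1a, had 117 of its 127 UMIs in the progenitor-like cluster.

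**Figure D2:**
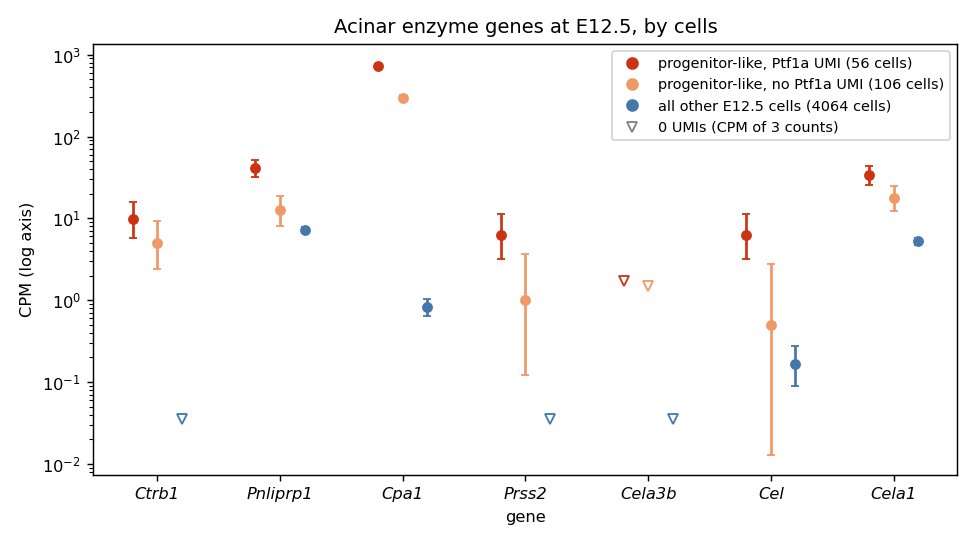
Level of the 7 enzyme genes at E12.5, in CPM on a log axis with Poisson 95% intervals, in progenitor-like cells with a Ptf1a UMI, progenitor-like cells without one, and all other cells; open triangles mark 0 UMIs at the level of 3 counts. Cpa1 stands at 737.2, 299.5 and 0.82 CPM, whereas Pnliprp1 and Cela1 are above 5 CPM in all 3 sets.

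Pnliprp1 and Cela1 were not restricted to the progenitor-like cells. Outside them, Pnliprp1 had UMIs in 523 of 4064 cells (12.87%) at 7.22 CPM and Cela1 in 413 cells (10.16%) at 5.24 CPM, mostly 1 UMI at a time. Thinned to 2000 UMIs per cell, these shares were 1.31% and 1.03%. Pnliprp1 was between 5.405 and 10.83 CPM in 8 of the other 13 clusters (3290 cells), and between 0.83 and 1.39 CPM in 3 clusters that held 5 UMIs in 244 cells: cluster 12 (led by Nepn, Sfrp5 and Sh3bgr), cluster 13 (Hoxb13, Hoxa10 and Car2) and cluster 14 (Acta2, Wnt6 and Krt5). Cela1 was at 5.82 and 6.46 CPM in clusters 12 and 13, and at 1.39 CPM (1 UMI) in cluster 14. Ctrb1, Prss2 and Cela3b had 0 UMIs in these 4064 cells, which at 3 counts allows up to 0.035 CPM.

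At E17.5 a separate set of cells carried the enzymes. Cells in which Cpa1, Ctrb1, Cela1, Prss2 and Cel made up at least 2% of the UMIs are called acinar-rich. There were 553 of 4602 at E17.5 (12.02%, exact 95% interval 11.09 to 12.99) and 0 in each of the other libraries, where 3 cells would be 0.071% at E12.5, 0.0792% of adult cells and 0.0942% after irradiation. Few cells lay near the threshold: 9 cells lay between 1% and 2%, the highest at 1.986%, and 14 between 2% and 3%, the lowest at 2.066%. At thresholds of 1% and 5% the numbers were 562 and 496. Of the 553 cells, 337 fell in cluster 2, 205 in cluster 8 and 11 in 7 other clusters, 5 of these in cluster 19, which was led by smooth muscle genes; 4 of those 5 had high doublet scores.

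**Figure D3:**
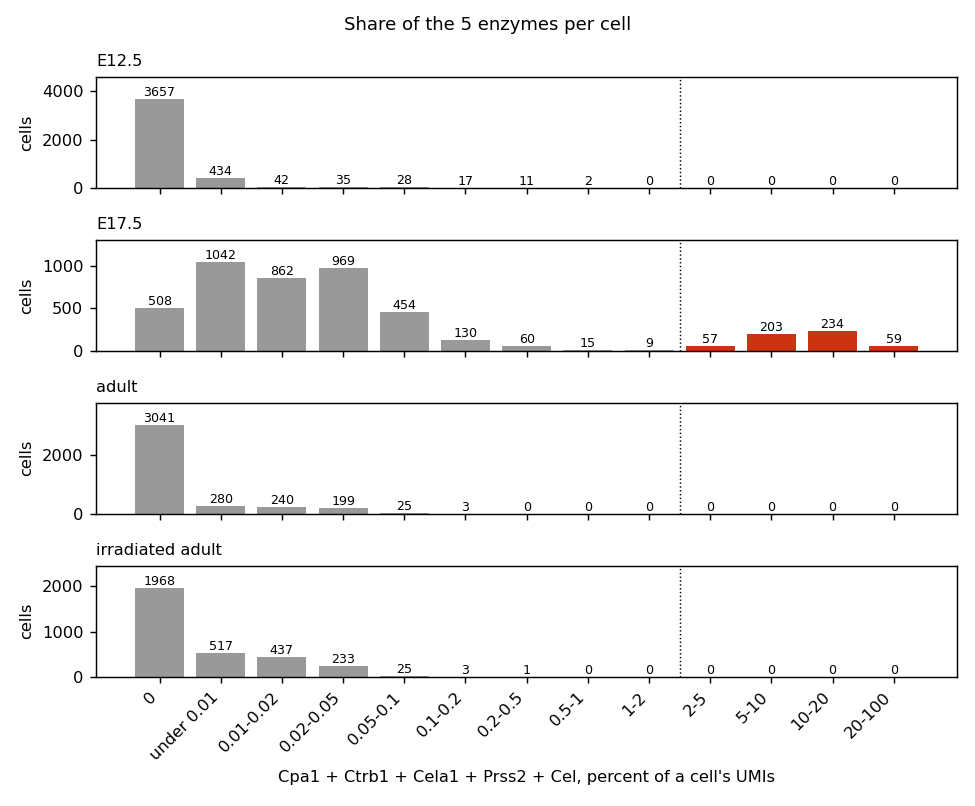
Number of kept cells in each library by the percent of a cell's UMIs that came from Cpa1, Ctrb1, Cela1, Prss2 and Cel together; the dotted line is the 2% threshold and red bars are acinar-rich cells. At E17.5 553 cells lie to the right of the line, 9 lie between 1% and 2%, and in the other libraries no cell lies to the right.

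These cells were chosen by 5 of the members, so those levels are given as a description. Ctrb1 was at 85680 CPM and made up a median of 8.387% of a cell's UMIs (0.9062% to 26.72%). It was the highest member in 526 of the 553 cells and gave 58.47% of the UMIs of the 8 members. Cpa1 was at 12210 CPM, Prss2 at 4968, Cel at 2825 and Cela1 at 1787. These are UMI counts from the 3' end of transcripts, which do not scale with transcript length.

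The 3 members that the rule did not use were high in the same cells. Pnliprp1 was at 34330 CPM (34200 to 34460) and was found in all 553 cells, at a median of 3.84% of their UMIs, and it led the members in 25 cells. Cela3b was at 4504 CPM (4455 to 4552), with UMIs in 547 cells. Ptf1a was at 230.2 CPM (219.4 to 241.4), with UMIs in 431 cells (77.94%), and at 0.88 CPM in the 4049 other cells. Counted over the 8 members, 8 were at least 4-fold higher in acinar-rich than in other cells, against 2.74% of all genes; 5 of these made the rule, so nothing is read from that count.

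The rest of the acinar programme was described through the fixed lists, whose genes the rule did not use but which share cells with it. Of the other secreted products, 24 of 26 compared were at least 4-fold higher in acinar-rich cells. Clps was at 31960 CPM in them (485.8 CPM in other cells), Prss1 at 4036 CPM (8.748) and Cpb1, a carboxypeptidase B, at 3102 CPM (8.331). Spink1, a trypsin inhibitor, was at 1514 and 410 CPM, and Pla2g1b at 3.77 and 11.47 CPM. The starch-digesting enzymes of the list were low: Amy2a5 was at 33.93 CPM and Amy1 at 19.12 CPM. Of the 12 members of the secretory machinery list, 7 were at least 4-fold higher, among them Gamt, a creatine synthesis enzyme (964.7 against 62.22 CPM), Pdia2, a pancreatic disulfide isomerase (739.8 against 3.554 CPM), and the cholecystokinin receptor Cckar (379 against 1.367 CPM).

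Of the 12 acinar regulators, 2 were at least 4-fold higher, Rbpjl (603.3 against 3.338 CPM) and Bhlha15 (78.35 against 0.8777 CPM), and 1 was at least 4-fold lower, Mnx1, a factor of early pancreas and beta cells (0.27 against 9.209 CPM). Nr5a2, a nuclear receptor of acinar cells, was at 84.95 and 28.98 CPM. The gut identity list was low: 11 of 11 genes were at least 4-fold lower, against 16.0% of all genes, with Cdx2 at 8.885 CPM in acinar-rich and 191.5 CPM in other cells. All 11 enterocyte and all 20 enteroendocrine markers, and 7 of 9 islet markers, were also at least 4-fold lower. The cells are labelled intestinal epithelium, and Epcam, a general epithelial gene, was at 390.1 CPM in them and 1952 CPM in the others.

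By ratio to other cells, the 10 highest genes that were not members were Prss3 (863.6-fold), Try5 (600.1-fold), Try10, Gm10334, Klk1b8, Cuzd1, 2210010C04Rik, Serpini2, Prss1 and Cela2a (451.9-fold), most of them trypsinogen-family, kallikrein or elastase genes. The 10 lowest included Gimap1 (57.61-fold lower), Aoc1 (50.02-fold lower), H2-T3, Tmem236, Mgam, Aadac, Ugt2b5, Kcne3 and Prap1 (33.88-fold lower), of which Mgam is a brush border enzyme. Over the 4602 cells, the genes whose log levels followed the 5 enzymes most closely included Try10 (Pearson r = 0.90), Serpini2 (0.89), Erp27, Prss1, Rnase1, Arhgdig, Sycn, Nupr1 and Rbpjl (0.877); the cells share 1 library, and these values are descriptions.

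The reporter and Bmi1 were low in the acinar-rich cells and in the other E17.5 cells, with overlapping intervals. The eGFP feature had 4 UMIs in the 553 cells (0.54 CPM, 0.15 to 1.38) and 81 in the 4049 others (1.17 CPM, 0.93 to 1.45), and Bmi1 was at 8.21 CPM (6.28 to 10.55) and 10.52 CPM (9.77 to 11.31). At E12.5 eGFP was at 23.88 CPM (19.18 to 29.39) in the progenitor-like cells and 22.91 CPM (21.9 to 23.95) in the others. Markers of blood moved with the acinar-rich group through 1 cell: haemoglobin genes had 5030 UMIs in the 553 cells, of which 4977 were in a single cell that spent 32.39% of its UMIs on them. Without it they were at 7.15 CPM, against 4.68 CPM in other cells. The leukocyte gene Ptprc had 0 UMIs in the acinar-rich cells.

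Between the progenitor-like cells of E12.5 and the acinar-rich cells of E17.5, Cpa1 differed 24.23-fold (503.9 against 12210 CPM) and Ptf1a 4.74-fold (48.56 against 230.2 CPM). The other members differed more. Cela1 was 70.87-fold higher at E17.5, Cel 877.5-fold, Pnliprp1 1319-fold, Prss2 1424-fold and Ctrb1 11830-fold (8129 to 17950). Cela3b was 5595-fold higher, set against 3 counts at E12.5. In all, 8 of 8 members were at least 4-fold higher, against 4.71% of genes; 5 of them had chosen the cells of E17.5. Of the 12 progenitor genes, 7 were at least 4-fold lower at E17.5, against 18.4% of all genes, and 1 was higher, Rbpjl, which is also on the regulator list. Pdx1 was at 155.1 CPM at E12.5 and 22.62 CPM at E17.5, and Sox9, a progenitor and duct factor, at 394.4 and 61.39 CPM. Lists of other cell types were higher at E17.5 as well, at least 4-fold in 15 of 20 enteroendocrine genes, 6 of 6 smooth muscle genes, 4 of 5 goblet genes compared, 4 of 7 islet genes compared (2 were lower) and 3 of 3 blood genes compared. For the blood genes, 4977 of the 5030 haemoglobin UMIs of the acinar-rich cells were in 1 cell. The part of these lists in the member ratios was not tested.

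The acinar-like cells of E17.5 fell into clusters 2 (346 cells) and 8 (205 cells), found without the members. Ctrb1 was at 64120 CPM in cluster 2 and 128600 CPM in cluster 8, a ratio of 2.006 (1.996 to 2.016). Cela3b (2.141), Cel (2.032), Prss2 (1.764), Cela1 (1.568), Pnliprp1 (1.404) and Cpa1 (1.312) were also higher in cluster 8. Ptf1a was lower in CPM, at 197.8 against 250.9 (ratio 0.7883, 0.7076 to 0.8769). The enzymes are part of the total behind each CPM, so a larger enzyme share by itself lowers the CPM of every other gene. How much of the Ptf1a ratio comes from this was not tested. Outside the members, Reg1, a secreted lectin, had a ratio of 3.458, Prss3 of 3.596, Try5 of 2.591 and Prss1 of 2.471. Amy2a5 (1.019, 0.7752 to 1.332) and Nr5a2 (0.8764, 0.7348 to 1.042) had intervals that include 1. None of the members reached the 4-fold used above, and the trypsinogen genes that lead cluster 8 helped to define it.

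The clusters also differed in cycling. After thinning to 2000 UMIs, 180 of 327 cells in cluster 2 (55.05%, 49.48 to 60.52) and 5 of 204 in cluster 8 (2.451%, 0.8005 to 5.627) had at least 3 UMIs over 15 G2/M genes; unthinned, the shares were 81.21% and 20.49%. Median depth was 13459.5 and 10859 UMIs. The share was 34.33% over all acinar-rich cells and 29.57% over the other cells of the library. At E12.5 it was 53.1% in the progenitor-like cells and 61.77% in the others. The part of the cell cycle in the enzyme levels was not tested.

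**Figure D4:**
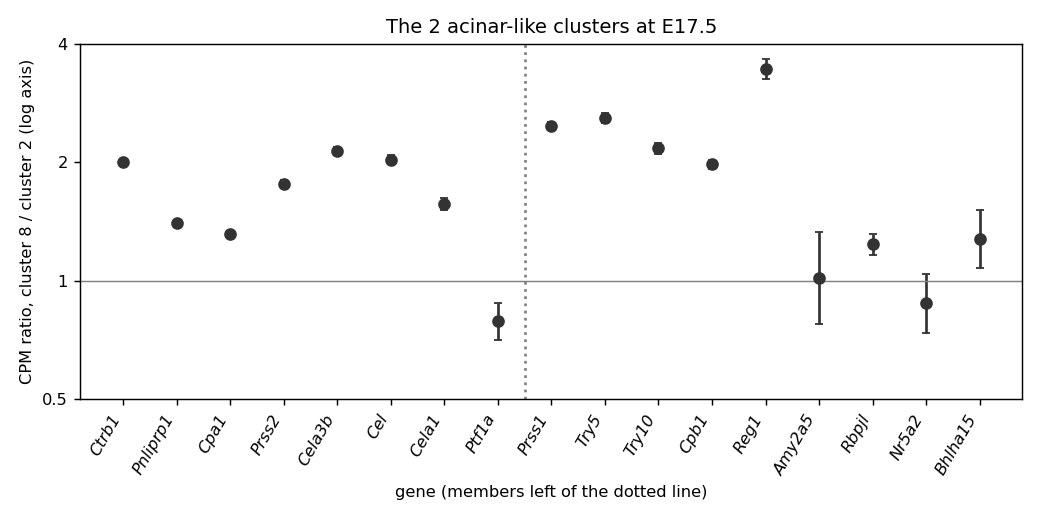
Ratio of CPM in cluster 8 to CPM in cluster 2, the 2 acinar-like clusters at E17.5, on a log axis, with 95% counting intervals; the members are left of the dotted line. The 7 enzyme genes lie between 1.312 and 2.141 and Ptf1a lies at 0.7883.

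Among acinar-rich cells the members varied together to different degrees. Pearson r of log levels over the 553 cells was 0.762 for Cela3b with Pnliprp1, 0.683 for Ctrb1 with Cela3b and 0.643 for Ctrb1 with Pnliprp1. With Cpa1, Ctrb1 had 0.36 and Cela3b 0.163. Ptf1a had -0.255 with Ctrb1 and -0.273 with Cela3b. Cells with 2% to 5% of their UMIs in the 5 enzymes had Ptf1a at 307.6 CPM (57 cells, median depth 18263 UMIs), those with 5% to 10% at 250.9 CPM (203 cells, 13339 UMIs), those with 10% to 20% at 191.8 CPM (234 cells, 11216 UMIs) and those with 20% or more at 173.8 CPM (59 cells, 10283 UMIs). These values share depth and library. The enzymes that set the bins are also part of the total that Ptf1a is divided by. A larger enzyme share thus by itself lowers Ptf1a in CPM, in the bins and in the correlations with Ctrb1 and Cela3b. How much of the Ptf1a differences comes from this was not tested.

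Outside the acinar-rich cells, enzyme UMIs were found across the E17.5 library. The 8 members summed to 297.5 CPM (293.5 to 301.6) in the other 4049 cells, 7.674-fold the level of the whole E12.5 library (7.402 to 7.957), and 6 of 8 members were at least 4-fold higher and 0 lower, against 14.5% and 8.68% of genes. The exceptions were Cpa1, at 24.32 CPM against 21.87, and Ptf1a, at 0.88 against 2.08 CPM. The sets are unlike, because the E12.5 side keeps its progenitor-like cells. Outside those cells, E12.5 had Cpa1 at 0.82 CPM, Ptf1a at 0.047 CPM and the summed members at 13.49 CPM. The ratio of the sum to the whole E12.5 library also depends on the threshold. On the log2 scale with 1 CPM added it was 2.91. It was 4.85 where cells up to 5% counted as other, which puts cells with 2% to 5% into the comparison.

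Ctrb1 was at 134.6 CPM in these cells, with UMIs in 72.81% of them, and in 21.72% after thinning to 2000 UMIs. With the cells divided into 4 bins of depth, the median cell had 1 Ctrb1 UMI in each bin, while the level was 328.2 CPM in the shallowest and 72.07 CPM in the deepest, with median depths of 5074 and 35336 UMIs. Across the 24 clusters with at least 20 such cells, Ctrb1 ranged from 50.89 CPM in cluster 10, led by Defa24 and other Paneth and goblet genes, to 852.1 CPM in cluster 18, led by Spp1 and Neurog3. Cluster 18 met the threshold for 7 pancreatic progenitor and 4 pancreatic duct markers. Its level of the 5 enzymes together was 1095 CPM, with a UMI in 48.36% of thinned cells. In cluster 19 these values were 386.3 CPM and 48.45%. Clusters of mesenchymal genes (264 cells) had Ctrb1 at 256.4 CPM, with a Ctrb1 UMI in 32.55% of thinned cells (26.84 to 38.67). Their median depth was 6414 UMIs. Clusters with at least 8 of 20 enteroendocrine markers (1202 cells) had 185.7 CPM and 29.32% (26.72 to 32.02) at 7708.5 UMIs. The intervals of the mesenchymal and enteroendocrine shares overlapped, but the share was not alike in all cells. Clusters grouped as enterocyte-like (707 cells) had 92.44 CPM and 11.78% (9.367 to 14.57) at 25543 UMIs. Over the 24 clusters the thinned share ran from 8.175% in cluster 1 to 59.09% in cluster 22, where 22 cells were deep enough to thin.

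The members were then set against Ctrb1. Per 100 Ctrb1 UMIs, acinar-rich cells had 14.25 of Cpa1, 5.256 of Cela3b, 40.07 of Pnliprp1, 3.297 of Cel and 5.799 of Prss2, and other cells had 18.07, 6.607, 56.8, 3.731 and 8.67 of the same genes, between 1.132 and 1.495 times as many. Ptf1a had 0.2687 and 0.6521, from 61 UMIs in the other cells. Cela1 stood apart, with 2.086 in acinar-rich and 26.51 in other cells, 12.71 times as many (12.17 to 13.27). The other cells include 9 cells of the acinar-like cluster 2 that lay under the threshold, and these held 1285 of the 9354 Ctrb1 UMIs, 544 of the 1690 of Cpa1 and 1431 of the 5313 of Pnliprp1. Without them the summed members were at 244.7 CPM and Ctrb1 at 116.3 CPM. Per 100 Ctrb1 UMIs the 4040 cells left had 14.2 of Cpa1, 3.359 of Cel, 48.11 of Pnliprp1, 7.275 of Prss2 and 6.804 of Cela3b, between 0.9969 and 1.294 times as many as acinar-rich cells. For Cpa1 (0.9396 to 1.057) and Cel (0.9002 to 1.148) the interval included 1. Ptf1a, with 42 UMIs, had 1.937 times as many (1.391 to 2.63) and Cela1 14.42 times (13.81 to 15.06).

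Cela1 outside the acinar-rich cells followed particular clusters. In the 7 clusters with at least 8 of 20 enteroendocrine markers and fewer than 4 islet markers (1202 cells) it was between 79.93 and 177.3 CPM. Cluster 12, led by Gcg and Tac1 (165 cells, median depth 24188 UMIs), had 7 enteroendocrine and 0 islet markers and so fell outside that class. It had Cela1 at 39.81 CPM (34.11 to 46.18), with a UMI in 7.407% of thinned cells, below the 7 clusters. In the 3 clusters with at least 4 islet markers (clusters 11, 16 and 21, led by Sst, by Ins1 and Ins2, and by Ppy; 411 cells) it was between 11.51 and 14.19 CPM. Ctrb1 ranged over 149.8 to 357.6 CPM in the 7 clusters, was at 83.28 CPM in cluster 12 and ranged over 131.7 to 286 CPM in the 3. With or without cluster 12, the enteroendocrine and islet-marker sets overlapped for Ctrb1 and did not for Cela1. The 4 highest Cela1 levels among the 7 were in cluster 9, led by Gip (177.3 CPM), cluster 6, led by Nts and Sct (175.4 CPM), cluster 7, led by Cck (156.6 CPM), and cluster 14, led by Chga and Tph1 (125.9 CPM). After thinning, a Cela1 UMI was found in 26.41% of the 1170 cells of the 7 clusters (23.9 to 29.04), in 3.137% of mesenchymal cells, 4.459% of enterocyte-like cells and 4.046% of goblet-like cells. The enterocyte-like cells include the shallow cluster 22, led by Gm26917 and Apoa4 (86 cells, median 1585.5 UMIs), with 0 enteroendocrine markers. Its Cela1, from 17 UMIs, was at 115.3 CPM (67.14 to 184.5), inside the range of the 7 clusters. A UMI was found in 31.82% of its 22 thinned cells (13.86 to 54.87). The marker counts that group these clusters were chosen after the clusters had been seen, and the 3 islet-marker clusters also met the threshold for 11 to 15 of the 20 enteroendocrine markers.

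**Figure D5:**
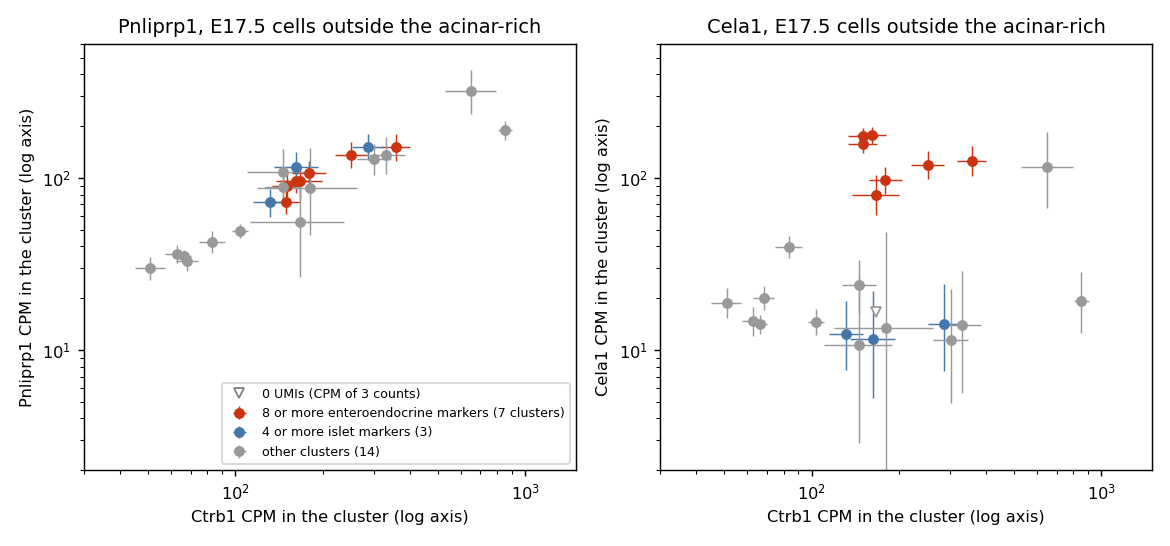
Pnliprp1 (left) and Cela1 (right) against Ctrb1 in E17.5 cells outside the acinar-rich set, 1 point per cluster of at least 20 cells, in CPM on log axes with Poisson 95% intervals; the open triangle is a cluster with 0 UMIs. Over the 24 clusters Pnliprp1 has between 22.13 and 74.55 UMIs per 100 Ctrb1 UMIs, and Cela1 between 0 and 116.3. The 22.13 is from cluster 18, where Ctrb1 is highest. Cela1 is between 79.93 and 177.3 CPM in the 7 clusters with at least 8 enteroendocrine markers. In the 3 with islet markers it is at or below 14.19 CPM. Cluster 12, with 7 enteroendocrine markers, and cluster 22, with 0, are drawn among the other clusters at 39.81 and 115.3 CPM.

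In the adult 8 of 8 members were at least 4-fold lower than at E17.5 and 0 higher, against 9.08% lower and 8.39% higher among all genes. Cpa1, Ctrb1 and Ptf1a had 0 UMIs and were 12770-fold, 89290-fold and 244.9-fold lower, set against 3 counts. The single UMIs of Cela3b, Cel and Prss2 gave ratios to E17.5 of 7.08e-05, 0.000113 and 6.39e-05, with counting intervals of 1.79e-06 to 0.000394, 2.86e-06 to 0.00063 and 1.62e-06 to 0.000356. Against the other E17.5 cells alone, 7 of 8 members were at least 4-fold lower in the adult and 0 higher, against 8.88% and 8.12% of genes. The exception, Cela1 in the adult, was 1.095 times as high (1.022 to 1.173). Other lists moved the same way from E17.5 to the adult: 7 of 9 islet, 8 of 8 fibroblast and 6 of 6 smooth muscle genes were at least 4-fold lower, while 9 of 9 tuft and 8 of 8 Paneth genes were higher. Their part in the member differences was not tested. On the list of other secreted products, Clps was at 573 CPM in adult cells and 666 CPM after irradiation, Reg1 at 305.4 and 24.72 CPM, and Pnliprp2, a galactolipase, at 124 and 126.6 CPM. Try4, Try5, Try10, Prss1, Cpb1 and Serpini2 had 0 UMIs in both adult libraries.

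Adult Cela1 lay mainly in enteroendocrine-like cells. It was at 68.38 CPM over the 8 clusters of that class (2287 cells), at 22.82 CPM over 4 tuft-like clusters (1011 cells), at 30.36 CPM in the enterocyte-like cluster (62 cells) and at 4.21 CPM in the Paneth-like cluster (74 cells). Among the 8 clusters it ranged from 12.85 CPM in cluster 1, led by Slfn8 and Rfx6, to 117.3 CPM in cluster 6, led by S100a6 and Cartpt. In the irradiated adult it was at 75.82 CPM over 9 enteroendocrine-like clusters (1737 cells, 38.6 to 109.3 CPM), 24.89 CPM in tuft-like and 6.84 CPM in Paneth-like cells. Clusters that met the marker numbers of both the enteroendocrine and the tuft class were put in neither. In adult cluster 17 (54 cells, 10 enteroendocrine and 8 tuft markers) Cela1 was at 48.85 CPM. In irradiated cluster 5, led by Fyb, Gm26917 and Dclk1 (232 cells, 10 and 8 markers), it was at 75.57 CPM (66.86 to 85.11). Cluster 2 of that library, led by Rfx6 and Slfn8 (306 cells), had 6 of the 20 markers and was not in the class; its Cela1 was at 23.72 CPM (14.87 to 35.91). After thinning, 9.091% of adult and 13.41% of irradiated enteroendocrine-like cells had a Cela1 UMI, but adult cluster 1, led by the same genes with 8 markers, was in the class. Without adult cluster 1 the adult share was 12.36% (10.55 to 14.36), and with irradiated cluster 2 the irradiated share was 12.39% (10.94 to 13.97). Those shares come from different thresholds, a minimum of 9 markers in the adult and of 6 in the irradiated adult. At a shared minimum the irradiated share was the higher. With 6 markers it was 12.39% against 9.091% (7.796 to 10.52) in the adult. With 9 it was 14.12% (12.39 to 16.0) against 12.36%, and the intervals overlapped. The size of the gap thus depends on the marker threshold.

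Adult Pnliprp1 lay mainly in Paneth-like cells. Paneth cells are the antimicrobial secretory cells of the crypt base. Of its 92 UMIs, 80 were in cluster 13, led by defensin genes, where 31 of 74 cells had a UMI and the level was 22.46 CPM (17.81 to 27.95). In the enterocyte-like cluster, of like depth (median 31139.5 UMIs against 30268.5), it was at 1.42 CPM, from 3 UMIs. In the irradiated adult, 65 of 70 UMIs were again in the defensin-led cluster, in 30 of 93 cells, at 9.07 CPM (7 to 11.56). The median depth of that cluster was 98899 UMIs. Ctrb1, the most abundant enzyme of E17.5, had 0 UMIs in the adult Paneth-like cells and 1 in the irradiated ones.

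Between the irradiated and the untreated adult, 2 of the 8 members had the 10 UMIs needed for comparison, and 0 of them differed by 4-fold, against 2.52% of genes higher and 2.99% lower. Cela1 was 1.285 times as high in the irradiated adult (1.197 to 1.379) and Pnliprp1 0.5867 times (0.4237 to 0.8093). The sum over the 8 members had a ratio of 1.238 (1.156 to 1.326). With a stricter cell filter of at least 1000 genes and at most 10% mitochondrial UMIs, its log2 ratio was -0.06 in place of 0.30, so its direction rests on the filter. With 1 library on each side, the spread between animals is unknown.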

How the data were processed

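Cells of 4 libraries were FACS-isolated and profiled with the 10x Chromium 3' version 3 chemistry, per the labels' protocols. Per the submitters' processing notes, Cell Ranger 3.1.0 and the mm10 build were used. The authors deposited raw UMI counts per gene and barcode, without normalization; how they selected barcodes is not given in the sources used here. The members and gene lists were chosen with earlier results of these data known, and nothing here is independent of those.

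Cells under 500 genes or over 20% mitochondrial UMIs were left out. UMIs were summed over cells and given as CPM. Folds are ratios of CPM with exact conditional 95% intervals; a gene was counted as higher or lower at 4-fold, if it had at least 10 UMIs on either side, and a side at 0 was set to 3 counts. Log2 ratios used 1 CPM added. Shares carry exact Clopper-Pearson intervals. All intervals cover counting error only, and with 1 library per group there was no test and no p-value. For shares compared across depths, cells were thinned to 2000 UMIs, which left out 571, 190, 686 and 505 shallower cells at E12.5, E17.5, adult and irradiated adult.

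Each library was clustered (scanpy 1.11.5, 2000 variable genes, 30 components, 20 neighbours, Leiden resolution 1, leidenalg 0.10.2) without the 8 members. A marker counted for a cluster at 50 CPM or more and in at least 10% of its cells. The marker's level in the cluster also had to be no lower than over all kept cells of the library. The numbers of markers that name a class were set after the clusters were seen, so names are rebuilt and not the authors'. Doublets were kept, and the highest Scrublet scores were removed as an alternative, since its automatic threshold called 0, 8, 4 and 1 cells. Named genes were the members; 2 to 4 genes of each list, the most abundant first (list genes named beyond these, such as exceptions, were chosen after their values were seen); the 10 non-members with the highest correlation with the 5 rule enzymes (in at least 5% of cells); the 10 highest and 10 lowest ratios in acinar-rich cells (at least 200 UMIs and 25% of cells; ribosomal, mitochondrial, haemoglobin and sex-linked genes left out); and the 5 highest in Ptf1a-positive cells at E12.5 (at least 50 UMIs and 25% of those cells). Fold intervals were tested on simulated counts, and thinning on part of the deposited E17.5 barcodes. Alternatives included edgeR's TMM factors (edgeR 4.0.16). Promoter sequences are RefSeq's on GRCm38.p6 and positions are from GENCODE M21. Some genes that the rule selects are not reported here.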

Additional observations from a re-analysis of the deposited data

Results flagged for a closer look

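At E17.5, barcodes outside the kept cells also held acinar-rich profiles: 84 of the 630 barcodes that had fewer than 500 genes or more than 20% mitochondrial UMIs reached 2% of their UMIs in the 5 enzymes (13.33%, exact 95% interval 10.78 to 16.24). Their median was 921 UMIs, with 34.03% mitochondrial. In the barcodes left out of the other libraries the number was 0 of 990 at E12.5, 0 of 2499 in the adult and 0 of 2812 in the irradiated adult. These barcodes were used in no comparison of the report, which is why the signal is given here.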

How the results depend on the processing

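No paired analysis was possible because each group is 1 library and the labels give no replicate numbers. All values below are log2 ratios of the summed members with 1 CPM added, unless given as percent. The ratio of E17.5 to E12.5 was 8.502, and 8.62 with edgeR's TMM factors, 8.88 averaging the CPM of single cells, 8.21 with 10 CPM added and 2.91 without acinar-rich cells. The ratio of adult to E17.5 was -8.39, and -8.56 with every deposited barcode, -7.96 with the stricter cell filter, -9.11 averaging the CPM of single cells, -8.11 with 10 CPM added, -8.52 without mitochondrial and ribosomal protein genes in the total and -2.79 without acinar-rich cells. The ratio of irradiated to untreated adult was 0.30, and -0.056 with the stricter filter, the one alternative that turned its direction, and 0.71 averaging the CPM of single cells; the cause was not tested. The ratio of other E17.5 cells to E12.5 was 2.91, and 3.04 with every barcode, 2.80 with doublets removed, 3.03 with TMM factors, 3.58 averaging the CPM of single cells, 2.66 with 10 CPM added, 2.61 and 4.85 at thresholds of 1% and 5%, and 2.63 without the cells of clusters 2 and 8, chosen after seeing the data. The acinar-rich share was 12.02%, and 10.78% at 5%. The share of other E17.5 cells with a UMI of the 5 enzymes was 33.64% thinned to 2000 UMIs, and 22.13% at 1000, 50.9% at 4000 and 87.45% unthinned, as fewer or more UMIs per cell give by construction. Of 80 alternatives, 53 stayed inside the counting interval of the value reported, 26 left it in the same direction and 1 reversed. Some of the 53 could not have differed. The setting without a minimum count repeated the reported ratio of each of the 8 members. Leaving out acinar-rich cells changed nothing between the adult libraries, which had none. The intervals of the member ratios were also widened where needed to hold the reported value. The 53 is thus no measure of robustness. With TMM factors 8 of 8 members stayed higher at E17.5 than at E12.5. Chosen after seeing the data, the Cela1 ratio between the enteroendocrine and islet-marker clusters (3.51) was 3.58 with the stricter filter, 3.63 with doublets removed, 3.13 with a minimum of 7 enteroendocrine markers and 2.86 averaging the CPM of single cells. Depth limits the adult zeros, which at 3 counts allow 0.094 CPM, and 0.0725 CPM in the irradiated adult.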
